A study of Drosophila melanogaster with 36 samples.

Results

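The 10 nicotinic acetylcholine receptor subunit genes of Drosophila melanogaster, nAChRalpha1 to nAChRalpha7 and nAChRbeta1 to nAChRbeta3, were taken as the rows of the deposited read count table that carry these symbols, 10 of 17562 genes. The table came from a study of glial aging in the fly brain, in which brains of female flies were dissociated, GFP+ glia were collected by fluorescence-activated cell sorting, and RNA of the sorted cells and of the unsorted cell suspension of the same brains (whole brain) was sequenced by Smart-seq3. There were 36 libraries in 12 groups of 3. The 3 groups of sorted cells at day 70 were ensheathing glia of the driver line 56F03 (GMR56F03-GAL4), ensheathing glia of the line 10E12 (GMR10E12-GAL4) and astrocyte-like glia of the line 86E01 (GMR86E01-GAL4), here called astrocytes, and the same 3 populations were sorted at day 5. The other 6 groups were whole brains of these 3 lines at day 70 and at day 5. All flies of a line carried its GAL4 driver with GFP, so whole brain and sorted cells of a line share a genotype, astrocytes come from 1 line only, and a difference between glial types cannot be told apart from a difference between lines. Each library pooled several brains.

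Nicotinic receptors are cation channels of the Cys-loop superfamily, built from a ring of subunits that surround a pore, and they open when acetylcholine binds between neighboring subunits. Acetylcholine is the main fast excitatory transmitter of the insect brain, so these receptors carry much of its synaptic traffic, and they are the targets of neonicotinoid insecticides and of spinosad. Alpha subunits are defined by a pair of adjacent cysteines in the binding loop, which beta subunits lack, and channels can form from alpha subunits alone or from alpha and beta subunits together.

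Total counts ranged from 912285 to 17060052 per library (median 6611363). The 4 shallowest libraries, 1 or more of each tissue, held 912285 to 1920017. Levels are given as CPM (counts of a gene per 1e6 counts of its library) after TMM scaling, which corrects library totals for differences in composition. At the lowest and highest depth, 3 counts correspond to 3.86 and 0.171 CPM, and these limits cover counting error only, because PCR copies of 1 molecule can be read more than once. The labels were checked on marker genes at day 5. The summed level of 3 astrocyte markers (alrm, Gat and Eaat1) was 22700 to 23900 CPM in sorted astrocytes. It was 4220 to 7110 CPM in sorted ensheathing glia and 888 to 3270 CPM in whole brain. That of 3 ensheathing glia markers (egr, sgl and Eaat2) was 408 to 898 CPM in sorted ensheathing glia and 210 to 379 CPM in whole brain. In sorted astrocytes it was 306 to 439 CPM, which met the range of ensheathing glia. Relative to whole brain of the same lines, egr stood higher in astrocytes (586%) than in ensheathing glia (358%). The other 2 stood higher in ensheathing glia, sgl at 267% against 155% and Eaat2 at 196% against 113%. At day 70 the astrocyte markers summed to 3400 to 6080 CPM in sorted astrocytes and 1750 to 2750 CPM in sorted ensheathing glia. Some markers of other cells were higher in sorted cells than in whole brain at day 5. Hemocyte markers summed to 3370 to 4260 CPM in astrocytes and 620 to 2270 CPM in ensheathing glia. In whole brain they summed to 146 to 271 CPM. Cortex glia markers summed to 567 to 666 CPM in ensheathing glia, against 61.4 to 209 CPM in whole brain. Sorted cells were not free of neuronal RNA either. The 15 neuron markers counted here, elav and nSyb among them, had reads in all 18 sorted libraries, with a summed level of 2750 to 5050 CPM in ensheathing glia and 1120 to 4240 CPM in astrocytes, against 10700 to 13900 CPM in whole brain. Markers of other transmitters summed to 1660 to 3640 CPM in ensheathing glia at day 5, against 2120 to 3360 CPM in whole brain. Of these 8 markers, 1 was higher and 2 were lower in ensheathing glia at an edgeR adjusted p below 0.05. Genes used in neurons were thus not all lower by a like amount in sorted cells.

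Positions of the members were read from the Ensembl annotation on dm6 coordinates. nAChRalpha1 (chromosome 3R, 24393896 to 24457157), nAChRalpha2 (24485428 to 24491147) and nAChRbeta2 (24509228 to 24515106) lie side by side on 3R, nAChRalpha1 and nAChRbeta2 on the minus strand and nAChRalpha2 on the plus strand. nAChRalpha3 (8276200 to 8367169, minus strand) and nAChRalpha7 (19327075 to 19348447, minus strand) are on X. nAChRalpha4 (23206669 to 23287448, plus strand) and nAChRbeta1 (4429349 to 4435993, plus strand) are on 3L, and nAChRalpha5 (14040170 to 14094401, plus strand), nAChRalpha6 (9793317 to 9886250, minus strand) and nAChRbeta3 (545129 to 547096, plus strand) are on 2L. The longest coding sequence ranged from 1323 bases for nAChRbeta3 to 2511 bases for nAChRalpha5. nAChRalpha6 has 7 annotated transcripts and nAChRalpha4 has 6, and reads were counted per gene, so isoforms are not separated. Exons of nAChRalpha3 overlap those of CG1636, exons of nAChRalpha4 overlap lncRNA:CR46475 and exons of nAChRbeta3 overlap Ets21C, each on the opposite strand. No source used here says that the counting used strand, so reads in these overlaps are uncertain.

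nAChRbeta3, the most divergent subunit of the family, had 0 counts in each of the 36 libraries. At the depths of these libraries this leaves room for a level of up to 0.171 to 3.86 CPM per library. The limit takes depth alone into account, and reads in the overlap of its exons with Ets21C are uncertain. It was not tested, and the other 9 members passed the filter on low counts in every comparison.

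In whole brain the 9 detected subunits were all well above these limits. Per kilobase of coding sequence, the order at day 70 was led by nAChRbeta1 with 390 ± 59.4 CPM per kb (SD, n = 9), nAChRalpha6 with 354 ± 57.8 and nAChRalpha7 with 344 ± 43.9, whose ranges overlapped along this order while that of nAChRalpha7 lay above the next, nAChRalpha5. nAChRalpha5, nAChRalpha1, nAChRbeta2, nAChRalpha4, nAChRalpha3 and nAChRalpha2 followed with 177 ± 39.6, 110 ± 28.1, 95.6 ± 13.5, 80.1 ± 17, 75.6 ± 9.99 and 60.5 ± 11.7 CPM per kb, each overlapping its neighbor. At day 5 nAChRbeta1, nAChRalpha6 and nAChRalpha7 led as well, with 348 ± 43.2, 254 ± 26.1 and 243 ± 36.4 CPM per kb. nAChRalpha5, nAChRbeta2 and nAChRalpha1 came next with 124 ± 18, 124 ± 10.2 and 109 ± 13.7 CPM per kb, and nAChRalpha4, nAChRalpha3 and nAChRalpha2 were lowest with 86.1 ± 4.31, 70.9 ± 10.6 and 61.8 ± 8.06 CPM per kb. Neighbors overlapped except after nAChRalpha7 and after nAChRalpha1. When levels were divided by all exon bases in place of coding bases, nAChRbeta1 still came first, nAChRalpha7 and nAChRalpha6 changed places, and nAChRalpha2, which has the shortest exon length of the detected members, moved to the fifth place at both ages.

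**Figure D1:**
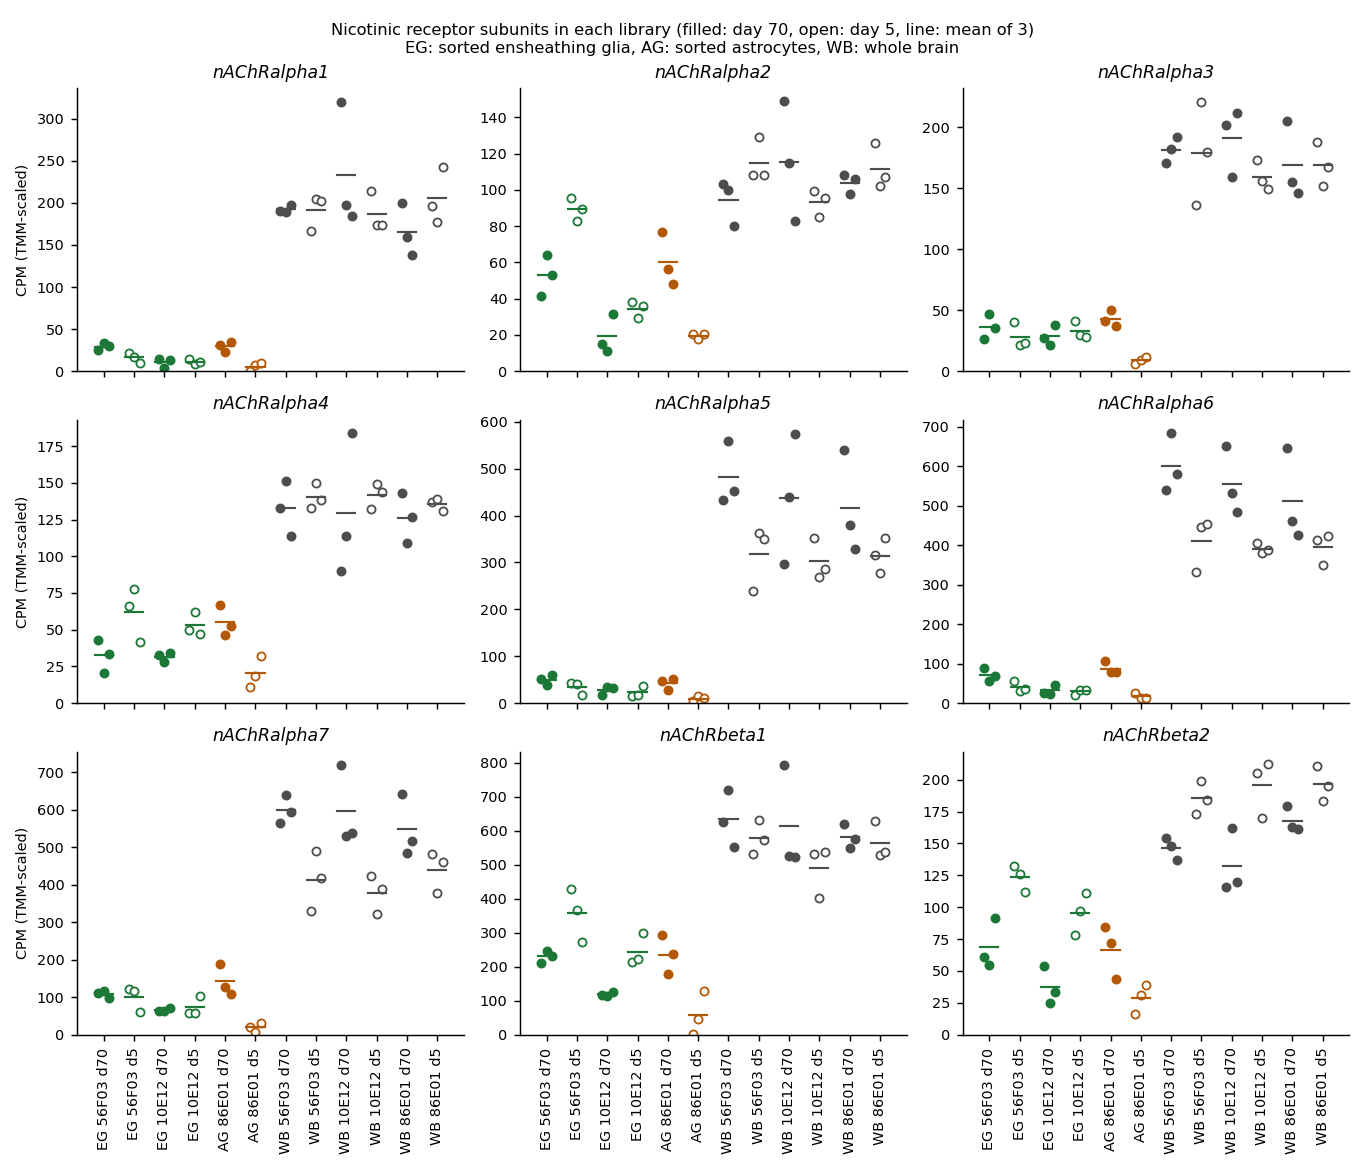
CPM (TMM-scaled, linear axis from 0) of the 9 detected subunits in each library; filled points are day 70, open points day 5, and the short line is the mean of 3 libraries, for sorted ensheathing glia (EG), sorted astrocytes (AG) and whole brain (WB) of each driver line. The group means of whole brain lie above those of sorted glia for each subunit, nAChRalpha5, nAChRalpha6 and nAChRalpha7 have their filled points higher in whole brain, and nAChRbeta2 has them lower.

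With age, whole brains changed in the makeup of their receptor transcripts. nAChRalpha5, nAChRalpha6 and nAChRalpha7 were higher at day 70 than at day 5, and nAChRbeta2 was lower, while nAChRalpha1, nAChRalpha2, nAChRalpha3, nAChRalpha4 and nAChRbeta1 did not pass the test. That is 4 of 9 members called, where 21.4% of all genes tested were called (edgeR quasi-likelihood test on 18 libraries with driver line as covariate, Benjamini-Hochberg adjusted p below 0.05 over all genes). The median log2 difference of the 9 members was 0.07, and that of all genes 0.02. nAChRalpha5, nAChRalpha6 and nAChRalpha7 are the subunits closest in sequence to vertebrate alpha7, and nAChRalpha6 is the target of spinosad. In whole brain and in bulk sorted cells alike, fewer cells of a type and less RNA per cell cannot be told apart.

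nAChRalpha7, which is needed for the visually driven escape reflex, had 485 CPM in the lowest, 564 in the median and 719 in the highest whole brain library at day 70, against 321, 418 and 491 CPM at day 5. Within each line the ages did not overlap: the libraries of 56F03 had 564, 640 and 593 CPM at day 70 against 331, 491 and 418 CPM at day 5, those of 10E12 had 719, 531 and 539 CPM against 423, 321 and 390 CPM, and those of 86E01 had 643, 485 and 518 CPM against 481, 378 and 462 CPM. The log2 difference was 0.49 ± 0.10 (SE, edgeR adjusted p = 0.0023).

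nAChRalpha6 was likewise separated within each line, by a narrow margin in 86E01. Its whole brain libraries of 56F03 had 540, 683 and 580 CPM at day 70 against 332, 447 and 454 CPM at day 5, those of 10E12 had 651, 531 and 483 CPM against 405, 381 and 387 CPM, and those of 86E01 had 647, 462 and 426 CPM against 412, 349 and 424 CPM. The log2 difference was 0.46 ± 0.10 (edgeR adjusted p = 0.0030). nAChRalpha5 spanned 297 to 575 CPM at day 70 (median 440) and 239 to 363 CPM at day 5 (median 315), and here the ages overlapped in 10E12 and 86E01 and were apart only in 56F03. Its log2 difference was 0.50 ± 0.13 (edgeR adjusted p = 0.0102).

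nAChRbeta2, a subunit whose mutants resist neonicotinoids, went the other way. Its whole brain libraries had 154, 148 and 137 CPM at day 70 against 173, 199 and 184 CPM at day 5 in 56F03, 116, 162 and 120 CPM against 205, 170 and 212 CPM in 10E12, and 179, 163 and 161 CPM against 211, 183 and 195 CPM in 86E01. Day 70 was thus lower in every line with no overlap within a line, although the pooled ranges met. nAChRalpha6, nAChRalpha7 and nAChRbeta2 were thus the 3 of 9 members apart in 1 direction within all 3 lines, where 7.1% of all genes were. The log2 difference was -0.39 ± 0.08 (edgeR adjusted p = 0.0027). Scaled by library totals in place of TMM, the median of all genes shifted by 0.15 on the log2 scale, and relative to that shift nAChRbeta2 differed by -0.40, nAChRalpha5 by 0.49, nAChRalpha6 by 0.44 and nAChRalpha7 by 0.47. nAChRbeta2 lost its call under this scaling (adjusted p = 0.159), and in 1 fit over all 36 libraries nAChRalpha5 (adjusted p = 0.0828) and nAChRbeta2 (adjusted p = 0.0866) lost theirs.

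Tested line by line on 6 libraries each, nAChRalpha5, nAChRalpha6, nAChRalpha7 and nAChRbeta2 had the same direction in each line, and few differences passed. In 56F03 whole brain, 3 of 9 members were called, nAChRalpha5 (log2 difference 0.62 ± 0.17), nAChRalpha6 (0.57 ± 0.15) and nAChRalpha7 (0.56 ± 0.14), with edgeR adjusted p of 0.0461, 0.0363 and 0.0361, where 12.5% of all genes were called. Leaving out any 1 of the 6 libraries left 0 or 1 of these calls. In 10E12 none of the 9 members was called, where 0.0358% of all genes were, and 1 of its day 70 libraries is the shallowest of the study. In 86E01 none was called either, where 6.13% of all genes were. At an unadjusted edgeR p below 0.05 there were 3 members in 10E12 (nAChRalpha6, nAChRalpha7 and nAChRbeta2) and 1 in 86E01 (nAChRbeta2), beside 13.3% of all genes in 10E12 and 24.1% in 86E01, and DESeq2 called 0 in both lines. nAChRalpha7 differed by 0.69 ± 0.24 in 10E12 and 0.30 ± 0.13 in 86E01, and nAChRbeta2 by -0.54 ± 0.21 and -0.25 ± 0.09.

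Among other genes of cholinergic signaling some were lower at day 70. Of 7 tested among 8 listed, 3 were lower at day 70 in whole brain and none higher: ChAT, which makes acetylcholine (266 ± 32.8 CPM at day 70 against 328 ± 54.3 CPM at day 5, n = 9 each), VAChT, which loads it into vesicles (350 ± 23.1 against 453 ± 43.4 CPM), and ChT, the choline transporter (55.7 ± 14.5 against 76.5 ± 3.91 CPM). Their log2 differences were -0.32 ± 0.08, -0.39 ± 0.07 and -0.46 ± 0.14 (edgeR adjusted p = 0.0104, 0.000932 and 0.0226). Ace, the acetylcholinesterase (-0.16 ± 0.07, adjusted p = 0.102), and qvr, a Ly6 protein that acts on nicotinic receptors (0.14 ± 0.07, adjusted p = 0.148), did not pass. Of the 15 neuron markers, 3 were higher and 5 lower (median log2 difference -0.10). Of 10 tested Cys-loop channels for other transmitters, none was higher and 3 were lower. All 3 astrocyte markers were lower, and the photoreceptor markers had a summed level of 2500 to 13700 CPM at day 70 against 653 to 9310 CPM at day 5, with none of 6 called. The part of these other cells in the subunit differences was not tested.

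**Figure D2:**
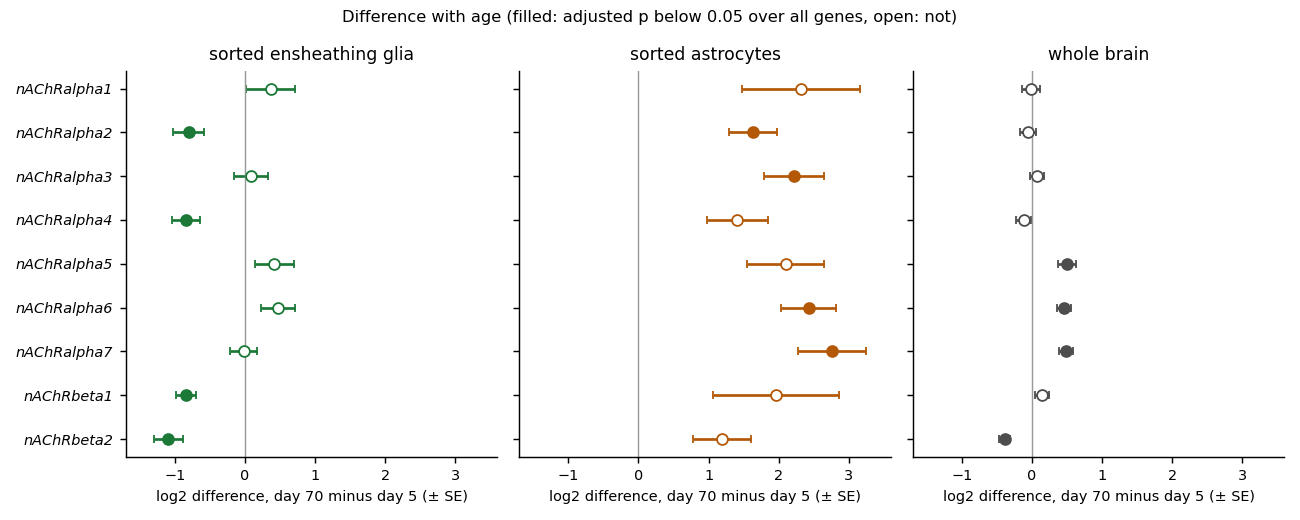
Log2 difference of each subunit, day 70 minus day 5, with its standard error, in sorted ensheathing glia (12 libraries), sorted astrocytes (6) and whole brain (18); filled points passed an adjusted p of 0.05 over all genes. In ensheathing glia nAChRalpha2, nAChRalpha4, nAChRbeta1 and nAChRbeta2 lie to the left of 0, in astrocytes all 9 lie to the right, and in whole brain nAChRalpha5, nAChRalpha6 and nAChRalpha7 lie to the right and nAChRbeta2 to the left.

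Sorted ensheathing glia held less of each subunit than whole brain of the same lines, but by very different amounts. At day 5 all 9 members were lower (edgeR quasi-likelihood test on 24 libraries, 34.1% of all genes called), and at day 70 all 9 were lower (48.2% of all genes called). nAChRalpha1, nAChRalpha5 and nAChRalpha6 were lowest relative to whole brain, at 7.32%, 9.21% and 8.66% of its mean level at day 5. nAChRalpha2, nAChRbeta2, nAChRbeta1 and nAChRalpha4 stood at 59.3%, 57.4%, 56.3% and 40.7%, with nAChRalpha7 at 21.9% and nAChRalpha3 at 18% in between. The 15 neuron markers covered a like span at day 5, 5.7% to 65.2% of the whole brain level with a median of 26.1%, beside a median of 21.9% for the 9 members, and all 15 were lower in ensheathing glia than in whole brain. How much of the subunit signal in sorted cells came from neuronal RNA was not tested.

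The contrast within the family can be seen in single libraries. nAChRalpha6 had 21.1 to 54.8 CPM in the 6 ensheathing glia libraries at day 5 (median 33.6), against 332 to 454 CPM in the 6 whole brain libraries (median 396), a log2 difference of -3.57 ± 0.23 (edgeR adjusted p = 1.2e-11). nAChRbeta1, the beta subunit carrying known neonicotinoid resistance changes in other insects, had 213 to 429 CPM (median 285) in ensheathing glia at day 5, against 401 to 630 CPM (median 535) in whole brain, and these ranges met. Its log2 difference was -0.86 ± 0.17 (edgeR adjusted p = 0.000191). nAChRalpha2 also overlapped, with 29.3 to 95.5 CPM against 85 to 129 CPM, a log2 difference of -0.88 ± 0.28 (adjusted p = 0.0155). Its call was lost when each sorted library was paired with the whole brain library of the same line, age and number (adjusted p = 0.0552), which left 8 of 9 members called. It was also lost without line as a covariate (adjusted p = 0.0873). For the other 7 members the day 5 ranges in ensheathing glia and whole brain did not meet, and at day 70 this held for all 9. Of all genes tested, 12.8% lay lower in ensheathing glia without overlap at day 5 and 11.1% at day 70.

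**Figure D3:**
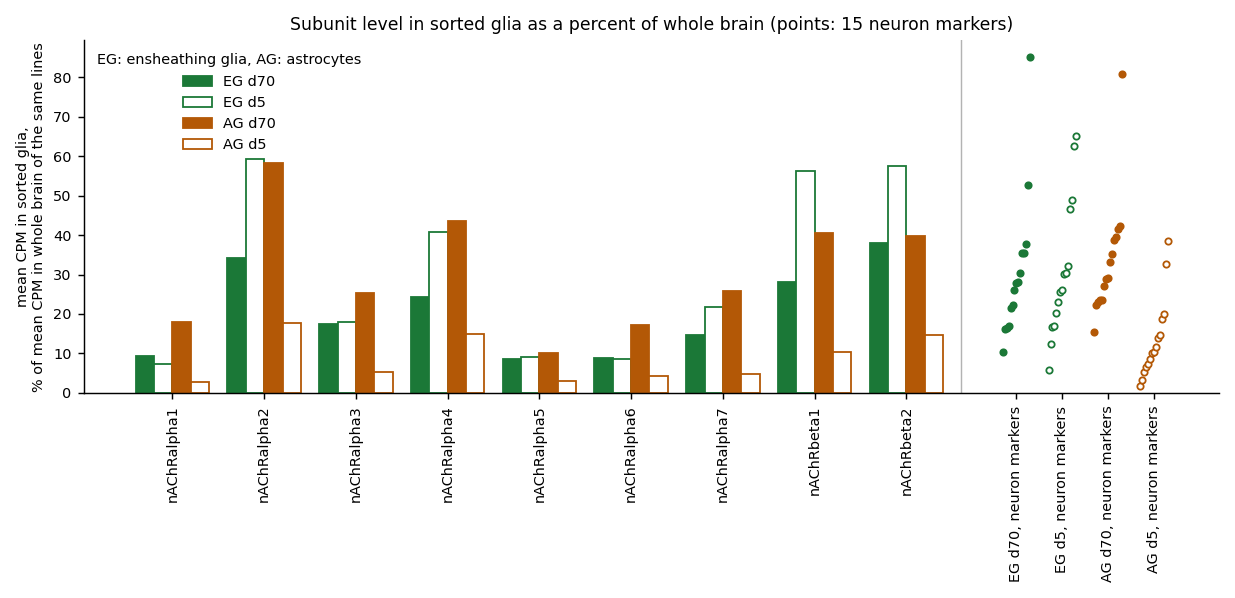
Mean CPM of each subunit in sorted ensheathing glia (EG) and sorted astrocytes (AG) as a percent of the mean in whole brain of the same lines, at day 70 (filled bars) and day 5 (open bars), with the 15 neuron markers as points at the right, each column of points sorted from low to high. nAChRalpha1, nAChRalpha5 and nAChRalpha6 stay under 10% in ensheathing glia at both ages, nAChRalpha2, nAChRbeta1 and nAChRbeta2 exceed 50% there at day 5 only, and each astrocyte bar is taller at day 70.

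With age, some subunits were lower in sorted ensheathing glia. nAChRbeta2, nAChRbeta1, nAChRalpha4 and nAChRalpha2 fell in ensheathing glia, 4 of 9 members, where 18.2% of all genes were called (edgeR quasi-likelihood test on 12 libraries with line as covariate). None was higher. nAChRalpha4, of which an allele shortens sleep, and nAChRalpha2 are in this group with both detected beta subunits. These 4 had also stood highest relative to whole brain at day 5. The day 5 ensheathing glia libraries enter both comparisons, so that match is no separate result. The median log2 difference of the 9 members was -0.02, since nAChRalpha1 (0.37 ± 0.35), nAChRalpha5 (0.42 ± 0.28), nAChRalpha6 (0.47 ± 0.24), nAChRalpha3 (0.09 ± 0.24) and nAChRalpha7 (-0.02 ± 0.19) did not pass.

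nAChRbeta2 had 61, 54.6 and 91.2 CPM in 56F03 ensheathing glia at day 70, against 132, 126 and 112 CPM at day 5, and 53.7, 25.2 and 33.2 CPM in 10E12 ensheathing glia at day 70, against 78.2, 96.7 and 111 CPM at day 5. In both lines each old library lay below each young one. The log2 difference was -1.09 ± 0.20 (edgeR adjusted p = 0.0023).

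nAChRbeta1 was also separated by age in both lines, which makes 2 of 9 members, where 6.51% of all genes were lower in this way. It had 212, 247 and 232 CPM in 56F03 ensheathing glia at day 70, against 429, 368 and 273 CPM at day 5, and 116, 114 and 127 CPM in 10E12 ensheathing glia at day 70, against 213, 223 and 298 CPM at day 5. Its log2 difference was -0.84 ± 0.14 (edgeR adjusted p = 0.0012).

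nAChRalpha4 and nAChRalpha2 were each separated in 1 line. The share of all genes apart in a single line was not computed. nAChRalpha4 had 32.4, 27.6 and 34.1 CPM at day 70 against 49.9, 62 and 47.1 CPM at day 5 in 10E12, and 42.9, 20.7 and 33.5 CPM against 65.9, 78 and 41.8 CPM in 56F03, where the highest old library passed the lowest young one (log2 difference over both lines -0.84 ± 0.20, edgeR adjusted p = 0.0103). nAChRalpha2 had 41.4, 64.2 and 53 CPM at day 70 against 95.5, 82.6 and 89.6 CPM at day 5 in 56F03, and 15, 11.2 and 31.5 CPM against 38.1, 29.3 and 35.8 CPM in 10E12 (log2 difference -0.80 ± 0.22, adjusted p = 0.0202). Without line as a covariate, nAChRalpha2 (adjusted p = 0.277) and nAChRbeta1 (adjusted p = 0.0522) lost their calls, and nAChRbeta1 also did in 1 fit over all libraries (adjusted p = 0.0749).

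In the single lines, 2 of 9 members were called in 10E12 ensheathing glia, nAChRbeta1 (-1.04 ± 0.19) and nAChRbeta2 (-1.35 ± 0.30), with edgeR adjusted p of 0.0122 and 0.0232, where 9.58% of all genes were called. In 56F03 ensheathing glia 2 of 9 were called, nAChRalpha2 (-0.74 ± 0.19) and nAChRbeta2 (-0.82 ± 0.22), with adjusted p of 0.0287 and 0.0296, where 15% of all genes were called. These line-wise counts moved between 0 and 2 in 10E12 and between 0 and 4 in 56F03 when 1 library was left out.

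Over both lines, the neuron markers in sorted ensheathing glia did not all move in 1 direction with age. Their summed level was 2820 to 3970 CPM at day 70 and 2750 to 5050 CPM at day 5, and 3 of the 15 were higher and 5 lower (median log2 difference 0.29). In 10E12 alone, 0 of the 15 were higher and 4 lower (median 0.10), and 3 of 7 cholinergic genes were lower. In 56F03 alone, 2 were higher and 1 lower (median 0.31), and 0 of 7 cholinergic genes were called. elav had 65.6 ± 14.3 CPM at day 70 and 52.2 ± 14.5 CPM at day 5 (n = 6 each, adjusted p = 0.256), and nSyb, a synaptic vesicle protein, 433 ± 104 against 600 ± 88.6 CPM (log2 difference -0.49 ± 0.16, adjusted p = 0.0477). Per 1000 CPM of neuron markers, nAChRbeta1 had 29.1 to 69.6 CPM at day 70 (median 48.7) against 55.7 to 99.3 CPM at day 5 (median 80.4), nAChRbeta2 8.93 to 25 (median 14.4) against 21.3 to 40.6 (median 27.2), and nAChRalpha4 5.85 to 11.5 (median 9.5) against 12 to 18.9 (median 14.4). nAChRalpha2 had 3.78 to 18.1 (median 10.6) against 7.32 to 32.5 (median 14.6). With both lines pooled, nAChRalpha4 did not overlap between the ages on this scale, and nAChRalpha2, nAChRbeta1 and nAChRbeta2 did. Within each line nAChRalpha4, nAChRbeta1 and nAChRbeta2 did not overlap. nAChRbeta1 had 29.1, 40.4 and 40.6 at day 70 against 57.9, 55.7 and 75.7 at day 5 in 10E12. In 56F03 it had 56.7, 69.6 and 63.6 against 85, 89 and 99.3. nAChRalpha2 was apart in 56F03 and overlapped in 10E12. The share of all genes apart on this scale was not computed. Of the cholinergic genes, 2 of 7 tested were lower and none higher in old ensheathing glia, among them ChT with 16.4 ± 6.47 CPM at day 70 against 39.9 ± 9.68 CPM at day 5 (-1.36 ± 0.24, adjusted p = 0.0014). repo fell in the same libraries, with 192 ± 20.4 CPM at day 70 against 338 ± 67 CPM at day 5 (-0.82 ± 0.12, adjusted p = 0.00045), and all 3 astrocyte markers were lower. The part of neuronal RNA and of these glial genes in the differences was not tested.

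Whether ensheathing glia changed differently from the brain around them was tested as an interaction over the 24 libraries of both lines. Of the 9 members, 1 was called, where 2.04% of all genes were: the age difference of nAChRbeta1 was lower in ensheathing glia than in whole brain by -1.06 ± 0.23 on the log2 scale (edgeR adjusted p = 0.0145). With sorted and whole brain libraries paired by line, age and number, this call was lost (adjusted p = 0.0785). It was also lost without the 4 shallowest libraries (adjusted p = 0.0615), without line as a covariate (adjusted p = 0.0740) and in 1 fit over all libraries (adjusted p = 0.231). nAChRalpha2 (-0.85 ± 0.39), nAChRalpha4 (-0.75 ± 0.26), nAChRalpha7 (-0.61 ± 0.26) and nAChRbeta2 (-0.61 ± 0.27) did not pass. Relative to whole brain of the same lines, nAChRbeta1 stood at 28% in old ensheathing glia against 56.3% in young ones, and nAChRbeta2 at 38.1% against 57.4%.

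Young astrocytes had the lowest mean of the 12 groups for each detected subunit except nAChRalpha2 (19.6 CPM, beside 19.3 CPM in old 10E12 ensheathing glia). Their libraries lay below those of the next group for nAChRalpha3, nAChRalpha5 and nAChRalpha7. For nAChRalpha1, nAChRalpha4, nAChRalpha6, nAChRbeta1 and nAChRbeta2 they overlapped the next group, so these do not differ beyond their spread. The share of all genes with their lowest mean in young astrocytes was not computed. At day 5 all 9 members were lower in sorted astrocytes than in whole brain of 86E01 (edgeR quasi-likelihood test on 12 libraries, 42% of all genes called), at 2.69% (nAChRalpha1) to 17.6% (nAChRalpha2) of the whole brain level. nAChRalpha5 had 3.33, 15 and 10.4 CPM in the 3 astrocyte libraries at day 5, against 315, 277 and 352 CPM in whole brain, a log2 difference of -4.90 ± 0.40 (adjusted p = 2.14e-06). nAChRalpha1 was at 0 counts in 1 of these astrocyte libraries, the shallow one with 1514977 counts in all, where 3 counts would be 2.5 CPM, and had 7.02 and 9.55 CPM in the other two. In that same library nAChRbeta1 had 1 count, while the others had 46.5 and 129 CPM. By its mean per kilobase of coding sequence nAChRbeta1 came first in young astrocytes too (37.5 ± 41.4 CPM per kb). That level rests on libraries that differ widely.

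Old astrocytes had higher values of each subunit, of which 4 passed the test. Each of the 9 members was higher in the 3 day 70 libraries than in the 3 day 5 libraries with no overlap, as were 16.6% of all genes tested, and 4 of the 9 were called, where 6.44% of all genes were called (edgeR quasi-likelihood test on 6 libraries), namely nAChRalpha2, nAChRalpha3, nAChRalpha6 and nAChRalpha7. The median log2 difference of the 9 was 2.10, and that of all genes 0.11. nAChRalpha7 had 190, 128 and 109 CPM at day 70 against 21.6, 8.02 and 32.7 CPM at day 5 (2.76 ± 0.49, adjusted p = 0.0140), and nAChRalpha6 had 106, 78 and 77.8 CPM against 25.8, 12 and 13 CPM (2.43 ± 0.39, adjusted p = 0.0102). nAChRalpha3 had 40.9, 50.2 and 37.1 CPM against 5.83, 9.03 and 12 CPM (2.22 ± 0.43, adjusted p = 0.0211), and nAChRalpha2 had 76.6, 56.6 and 48 CPM against 20.8, 17.7 and 20.4 CPM (1.63 ± 0.34, adjusted p = 0.0272).

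The remaining 5 members did not pass in astrocytes: nAChRalpha1 (2.32 ± 0.84), nAChRalpha5 (2.10 ± 0.55), nAChRbeta1 (1.97 ± 0.90), nAChRalpha4 (1.41 ± 0.43) and nAChRbeta2 (1.19 ± 0.41). nAChRbeta1 had 292, 178 and 236 CPM at day 70 against 0.832, 46.5 and 129 CPM at day 5. nAChRalpha2 lost its call when any 1 of the 6 libraries was left out, nAChRalpha3 when day 5 replicate 2 or any day 70 library was, and nAChRalpha7 when the shallow day 5 replicate 1 was (adjusted p = 0.0513), whereas nAChRalpha6 kept its call in each of these fits. Scaled by library totals, the median of all genes shifted by 0.39 on the log2 scale, all 9 differences stayed positive and 7 members were called.

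Neuron markers moved with the subunits in astrocytes. Their summed level was 4240, 3430 and 3440 CPM in the day 70 libraries and 1120, 1520 and 2430 CPM at day 5. Of the 15, 5 were higher, none lower, and 14 differed in the positive direction (median log2 difference 1.37). elav had 70.2, 72.4 and 77 CPM at day 70 against 7.49, 31.1 and 35.9 CPM at day 5 (1.52 ± 0.49, adjusted p = 0.106). In the same libraries repo, the pan-glial transcription factor, had 264, 176 and 227 CPM at day 70 against 563, 591 and 612 CPM at day 5 (-1.40 ± 0.20, adjusted p = 0.0064), and all 3 astrocyte markers were lower. 3 of 4 hemocyte markers were lower as well, with a summed level of 574 to 839 CPM at day 70 against 3370 to 4260 CPM at day 5. Per 1000 CPM of neuron markers the 9 subunits together had 193 to 221 CPM at day 70 (median 201) against 94.1 to 122 CPM at day 5 (median 108), and in whole brain 223 to 267 CPM (median 252) against 175 to 208 CPM (median 192). On that scale nAChRalpha7 had 31.7 to 44.8 CPM in old astrocytes against 5.27 to 19.3 CPM in young ones. nAChRalpha1, nAChRalpha3 and nAChRalpha4 were also apart. nAChRalpha6 overlapped, with 22.6 to 25.1 against 5.36 to 23 CPM, as did nAChRbeta2, with 12.7 to 21 against 14.8 to 20.4 CPM. nAChRalpha2 (14 to 18.1 against 8.39 to 18.5 CPM), nAChRalpha5 (8.17 to 15.2 against 2.96 to 9.89 CPM) and nAChRbeta1 (52.1 to 68.9 against 0.741 to 52.8 CPM) overlapped too. The share of all genes apart on this scale was not computed. The part of neuronal RNA in the astrocyte differences was not tested.

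**Figure D4:**
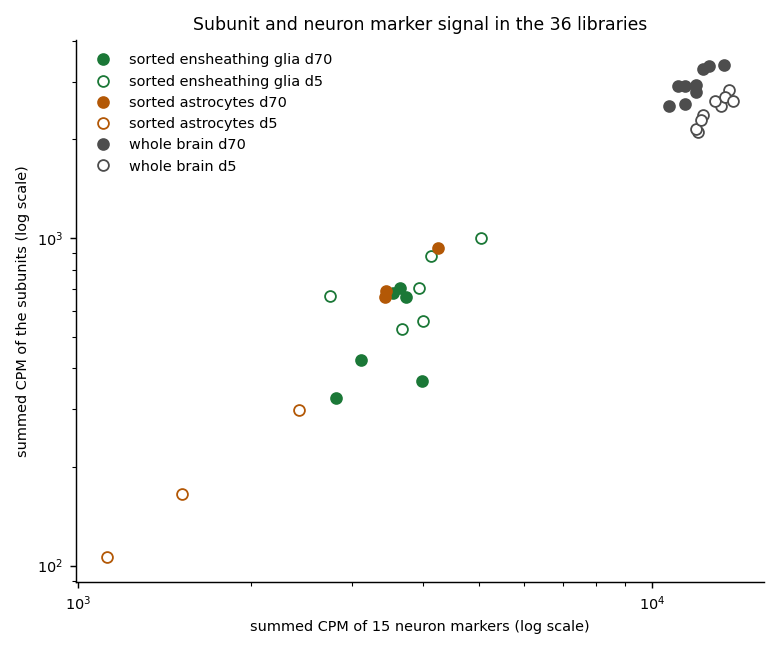
Summed CPM of the subunits against summed CPM of 15 neuron markers in the 36 libraries, both on log axes; filled points are day 70 and open points day 5. The 3 young astrocyte libraries lie lowest on both axes, with 106 to 298 CPM of subunits, old astrocytes (660 to 935 CPM) lie among the ensheathing glia, and the old whole brains (2530 to 3370 CPM) overlap the young ones (2110 to 2830 CPM) and reach higher.

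At day 70 the astrocytes stood closer to whole brain, at 10.2% (nAChRalpha5) to 58.2% (nAChRalpha2) of its level, and 8 of 9 members were lower than in whole brain, where 28.6% of all genes were called. The exception was nAChRbeta1 (-1.28 ± 0.72, edgeR adjusted p = 0.215), which was called without the shallow day 5 astrocyte library (adjusted p = 0.0110). The neuron markers stood at 15.4% to 80.9% of the whole brain level in old astrocytes, with a median of 29.1%, and at 1.68% to 38.6% in young ones, with a median of 10.4%. The age difference was higher in astrocytes than in whole brain of 86E01 for 5 of 9 members, where 4.28% of all genes were called: nAChRalpha1 (2.45 ± 0.61), nAChRalpha7 (2.42 ± 0.53), nAChRalpha3 (2.15 ± 0.33), nAChRalpha6 (2.07 ± 0.38) and nAChRalpha2 (1.73 ± 0.29), with edgeR adjusted p of 0.0466, 0.0267, 0.0062, 0.0134 and 0.0089. The call of nAChRalpha1 was lost with the pairing by age and number (adjusted p = 0.0735), and leaving out 1 library moved the count between 2 and 7. Of the 15 neuron markers, 3 were called in this comparison and all 15 differed in the positive direction.

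The glial types were set against each other on the 18 sorted libraries. At day 5, ensheathing glia had more of 8 of the 9 members than astrocytes, where 18.8% of all genes were called. The difference was 2.25 ± 0.58 for nAChRbeta1, 2.00 ± 0.37 for nAChRalpha7 and 1.85 ± 0.32 for nAChRbeta2 (edgeR adjusted p = 0.0103, 0.000922 and 0.000475), and 1.12 ± 0.57 for nAChRalpha1, which did not pass (adjusted p = 0.192). 13 of the 15 neuron markers were higher in ensheathing glia here as well and 1 was lower. At day 70 none of the 9 members was called, where 2.21% of all genes were. All 9 estimates were then negative, between -0.91 ± 0.26 for nAChRalpha2 and -0.17 ± 0.39 for nAChRalpha5, and nAChRalpha4 alone did not overlap (3.1% of all genes tested were lower without overlap), with 20.7 to 42.9 CPM in ensheathing glia and 46.4 to 67 CPM in astrocytes. In the edgeR test 4 of 9 members had an unadjusted p below 0.05, as did 14% of all genes, and DESeq2 called 1 member, nAChRalpha2 (adjusted p = 0.0323).

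The age difference was lower in ensheathing glia than in astrocytes for 7 of 9 members, where 11.9% of all genes were called. It was -2.75 ± 0.74 for nAChRbeta1, -2.73 ± 0.48 for nAChRalpha7, -2.40 ± 0.40 for nAChRalpha2, -2.23 ± 0.41 for nAChRbeta2, -2.19 ± 0.43 for nAChRalpha4, -2.07 ± 0.43 for nAChRalpha3 and -1.93 ± 0.44 for nAChRalpha6, with edgeR adjusted p between 0.0011 and 0.0218. nAChRalpha1 (-1.88 ± 0.76) and nAChRalpha5 (-1.62 ± 0.58) did not pass, and nAChRbeta1 lost its call without day 5 astrocyte replicate 2 (adjusted p = 0.0609). Of the 15 neuron markers, 8 were called lower in the same comparison (median -1.34), and their part was not tested.

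The ensheathing glia lines differed as well. Averaged over age, 56F03 had more than 10E12 of 3 of 9 members, where 11.5% of all genes were called: nAChRalpha2 (1.41 ± 0.22), nAChRalpha6 (0.80 ± 0.24) and nAChRbeta1 (0.75 ± 0.14), with edgeR adjusted p of 0.000781, 0.0476 and 0.0032. Of the 9 members, 2 were higher in 56F03 without overlap at both ages, where 4.12% of all genes were, namely nAChRalpha2 and, by narrow margins, nAChRbeta2, which did not pass the test (0.62 ± 0.20, edgeR adjusted p = 0.0641, and 0.0355 with DESeq2). nAChRalpha2 had 41.4 to 64.2 CPM in 56F03 against 11.2 to 31.5 CPM in 10E12 at day 70, and 82.6 to 95.5 CPM against 29.3 to 38.1 CPM at day 5. nAChRbeta1 was separated at day 70, with 212 to 247 CPM against 114 to 127 CPM, and overlapped at day 5. The share of all genes apart at day 70 alone was not computed. The call of nAChRalpha6 was lost with 7 of the 12 libraries left out in turn. Of the 15 neuron markers, 1 was higher and 1 lower in 56F03. All 3 ensheathing glia markers were higher, as were 4 of 8 markers of other transmitters (median log2 difference 0.71) and 2 of 3 astrocyte markers (0.48). Of 3 surface glia markers 1 was higher and 2 lower (median -3.58, lowest -4.02), and of 6 photoreceptor markers 4 were lower and none higher (median -1.12). The part of these other cells in the line differences was not tested.

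The share of each subunit in the summed family signal, per kilobase of coding sequence, differed between sorted glia and whole brain. nAChRbeta1 made up 32.6% to 39.4% of the signal in ensheathing glia at day 70 (median 35.1%) and 42% to 45.1% at day 5 (median 43.5%), against 20.6% to 26.1% and 21.2% to 27.3% in whole brain. On this scale the ages did not overlap in ensheathing glia and did in whole brain. Per kilobase of all exons the ages overlapped in ensheathing glia too, with 44.3% to 51.9% at day 70 and 49.8% to 55.4% at day 5. nAChRalpha6 took 7.77% to 14.3% of the signal in old ensheathing glia and 3.48% to 6.22% in young ones, again without overlap, and nAChRalpha7 took 14% to 19.9% and 9.03% to 14.4%. In whole brain nAChRalpha7 took 19.6% to 21.8% at day 70 and 15.6% to 18.3% at day 5, and nAChRbeta2 3.82% to 7.16% and 7.86% to 9.91%, both without overlap. Shares are relative, so that a gain of 1 subunit lowers the others.

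**Figure D5:**
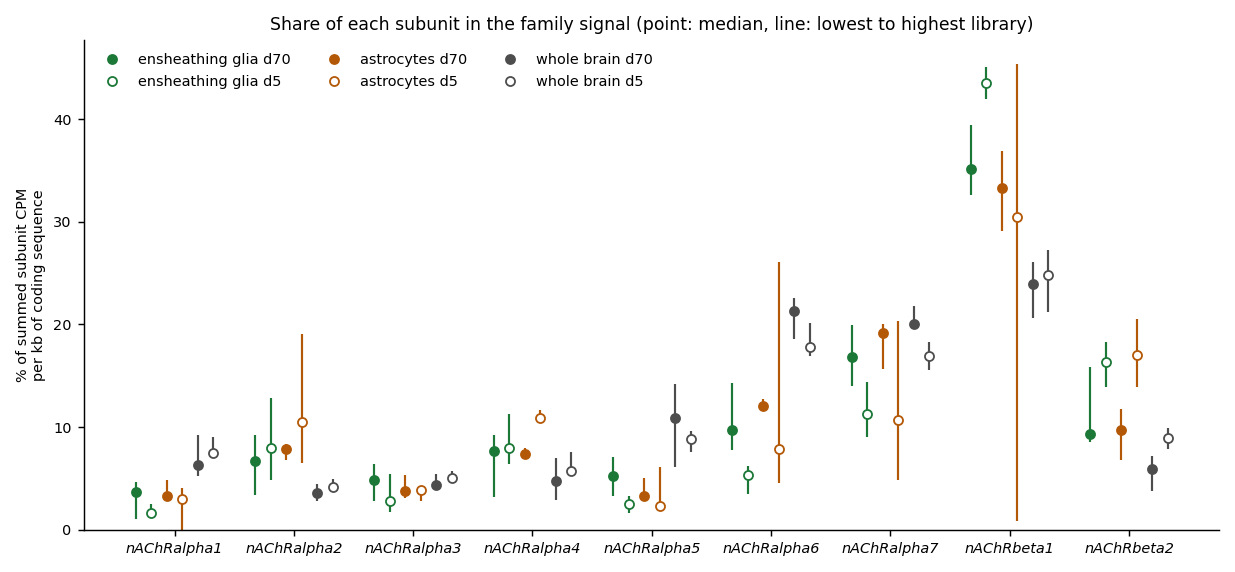
Share of each subunit, in percent of the summed CPM per kilobase of coding sequence, with the median (point) and the lowest to highest library (line) for sorted ensheathing glia (6 libraries per age), sorted astrocytes (3) and whole brain (9); filled points are day 70 and open points day 5. nAChRbeta1 has the largest share in ensheathing glia (43.5% at day 5), the young astrocyte range of nAChRbeta1 runs down to 0.846% through the library with 1 count, and nAChRalpha6 and nAChRalpha7 have larger median shares at day 70 in all 3 tissues.

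By their means, the whole brain groups lay above the sorted groups for each of the 9 members, while the order within each side differed between members. For nAChRalpha1 and nAChRalpha3 to nAChRalpha7, the lowest whole brain group lay above the highest sorted group with no overlap of their libraries. The share of all genes with such a gap was not computed. For nAChRbeta1, nAChRbeta2 and nAChRalpha2, by contrast, young 56F03 ensheathing glia came next after the whole brain groups, with means of 357, 123 and 89.2 CPM, beside 490, 133 and 93.4 CPM in the lowest whole brain group, and their libraries overlapped those of that group. nAChRalpha4 had its whole brain groups between 126 and 142 CPM, with neighbors overlapping, and 61.9 CPM in young 56F03 ensheathing glia, the highest sorted group.

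Across the 36 libraries all 36 pairs among the 9 members correlated positively, with Pearson r of log2(CPM + 1) between 0.684 (nAChRalpha6 with nAChRbeta1) and 0.966 (nAChRalpha1 with nAChRalpha3), a description over points that share the gap between sorted cells and whole brain. Within the 18 whole brain libraries r ran between -0.588 (nAChRalpha6 with nAChRbeta2) and 0.922 (nAChRalpha6 with nAChRalpha7), and 12 of 36 pairs were negative. The genes outside the family with the most similar pattern over the 36 libraries were elav for nAChRalpha1 (r = 0.983) and nAChRalpha5 (r = 0.98), the GABA receptor subunit gene Rdl for nAChRalpha3 (r = 0.983), bru3 for nAChRalpha6 (r = 0.981), X11Lbeta for nAChRalpha7 (r = 0.986), Cadps for nAChRalpha4 (r = 0.964), CG15765 for nAChRalpha2 (r = 0.946), CG15270 for nAChRbeta1 (r = 0.97) and Snap25 for nAChRbeta2 (r = 0.961). Within whole brain alone, the nearest was Dscam2 for nAChRalpha7 (r = 0.938), slo for nAChRalpha6 (r = 0.932), Rbp for nAChRalpha1 (r = 0.93) and CG10804 for nAChRbeta2 (r = 0.959). These 18 libraries differ in depth, line and age, and such differences enter r. These are ranks of likeness without a test.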

How the data were processed

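The data are RNA-seq of 36 libraries, 18 of sorted glia and 18 of whole brain. The values are read counts per gene, deposited by the authors without normalization: paired reads were aligned to dm6 with STAR 2.7.3a, unmapped and improperly paired reads were removed, and reads on exons of FlyBase genes were counted with summarizeOverlaps in union mode. Strand use and the treatment of molecular identifiers are not given in the sources used here. Each library was assigned to its group by its title. No libraries were identical and none was left out of the main fits. The samples are separate pools of brains.

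Counts were tested in R 4.3.3 with edgeR 4.0.16: TMM scaling, filterByExpr by group, glmQLFit and glmQLFTest (two-sided), Benjamini-Hochberg adjustment over all genes tested, called at an adjusted p below 0.05. The test gives no standard error, and those printed are the size of the log2 difference divided by the square root of F. The levels are TMM-scaled CPM over all 36 libraries, computed here from the counts. The paper states that unsorted suspensions came from the same brains as the sorted cells. Sorted and whole brain libraries of a line, age and number were taken as partners, which the titles do not state. The deviations from their group means correlated with r between -0.004 and 0.24 in 18 pairs (median 0.044), and 14 of 18 libraries correlated best with their own partner. Between ages and lines a shared number marks different flies. The test was also run on simulated counts that gave all genes the same setting of spread between libraries. That run does not cover libraries that differ widely, and nothing is concluded from it here. Alternatives were DESeq2 1.42.0, other scalings, no filter or at least 10 counts in every library, no line covariate, the replicate block, 1 fit over all libraries and leaving out each library in turn. Leaving out the 4 shallowest libraries, and giving levels per 1000 CPM of neuron markers, were added after seeing the data. The named genes are the 10 members, elav, nSyb, repo, ChAT, VAChT, ChT, Ace and qvr, and the genes most like each member by r. The members and the marker lists were chosen with earlier results of these data known. No sequences are printed.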

Additional observations from a re-analysis of the deposited data

Results flagged for a closer look

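In whole brain of 10E12, nAChRalpha1 in day 70 replicate 1 (320 CPM) and nAChRbeta1 in day 5 replicate 2 (401 CPM) stood far from the other libraries of their age. Chance alone marks about 1 in 20 groups tested in this way, and 36 were tested. The age difference of nAChRbeta1 was lower in ensheathing glia than in whole brain by -1.06 (interaction test, log2). It was higher in astrocytes than in whole brain for nAChRalpha1 (2.45), nAChRalpha2 (1.73), nAChRalpha3 (2.15), nAChRalpha6 (2.07) and nAChRalpha7 (2.42). It was lower in ensheathing glia than in astrocytes for nAChRalpha2 (-2.40), nAChRalpha3 (-2.07), nAChRalpha4 (-2.19), nAChRalpha6 (-1.93), nAChRalpha7 (-2.73), nAChRbeta1 (-2.75) and nAChRbeta2 (-2.23).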

How the results depend on the processing

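Of 3455 member differences recomputed under alternatives, 3191 kept direction and side of the threshold, 110 lost the call, 75 gained one, 79 uncalled ones changed sign, and 0 called ones reversed. With 1 fit over all libraries, 2 members were called for age in whole brain, 0 in 56F03 whole brain, 9 in astrocytes, 0 for ensheathing glia minus whole brain, 8 for astrocytes minus whole brain and 3 between glial types at day 70. DESeq2 called 5 for age in 56F03 ensheathing glia, 7 in astrocytes, 2 for ensheathing glia minus whole brain, 8 for astrocytes minus whole brain, 1 between glial types at day 70 and 6 between the ensheathing glia lines. With library totals these were 7 in astrocytes, 8 for astrocytes minus whole brain and 6 between lines. Without a filter, 5 were called in 56F03 ensheathing glia, and with at least 10 counts in every library 4, and then 5 for astrocytes against whole brain at day 5 and at day 70, 5 between glial types at day 5 and 1 at day 70, where 5 members were tested. Without line as covariate, 2 were called for age in ensheathing glia and 0 for ensheathing glia minus whole brain. With the replicate block 0 were called for ensheathing glia minus whole brain. Without the 4 shallowest libraries, chosen after seeing the data, 0 were called in 56F03 whole brain, 1 in 56F03 ensheathing glia, 2 in astrocytes and 0 for ensheathing glia minus whole brain.

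Leaving out 1 library gave 4 to 4 members called for age in whole brain, 0 to 0 in 10E12 and in 86E01, 0 to 1 in 56F03, 4 to 4 in ensheathing glia, 0 to 2 in its 10E12 and 0 to 4 in its 56F03 libraries, 2 to 3 in astrocytes, 9 to 9 for ensheathing glia against whole brain at both ages, 1 to 1 for ensheathing glia minus whole brain, 9 to 9 and 7 to 9 for astrocytes against whole brain at day 5 and day 70, 2 to 7 for astrocytes minus whole brain, 6 to 8 and 0 to 1 between glial types at day 5 and day 70, 7 to 8 for their age difference and 2 to 6 between lines. Between ages or lines a shared replicate number marks different flies. With it as a block nAChRalpha2 lost its call for age in astrocytes (adjusted p = 0.0531, edgeR) and in 56F03 ensheathing glia (adjusted p = 0.0512), where nAChRalpha6 gained one (adjusted p = 0.0232), and nAChRalpha6 lost its call between lines (adjusted p = 0.0655).

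The number of all genes called also moved. It was 371 with DESeq2 and 631 in 1 fit over all libraries for age in 10E12 whole brain, against 3 in the main test. In 1 fit over all libraries it was 234 in 56F03 whole brain (main test 1086), 130 in 86E01 whole brain (534), 2226 in astrocytes (553) and 448 between glial types at day 70 (212). With DESeq2 it was 1224 in astrocytes, 502 for ensheathing glia minus whole brain (204) and 895 for astrocytes minus whole brain (401), and with the replicate block 71 and 212 for these interactions.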
